A study of Homo sapiens with 16 samples.

Results

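The genes described here are TBCA, the other tubulin folding cofactors TBCB, TBCC, TBCD and TBCE, and the main tubulin genes TUBA1A, TUBA1B, TUBB and TUBB4B. They were chosen because TBCA was lower in all 4 comparisons of a knockdown of SH2D1A with its control, and because the other genes act in the same folding pathway or are its products. Of the 9 genes, 8 matched a row among the 64252 gene identifiers of the count tables. TBCE was not matched by symbol and was not analysed here, though it may have been counted under another identifier. The lower level of TBCA is what chose it, so its knockdown values are given as a description without a test. The other 7 genes were chosen by what they encode and were tested.

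RNA was sequenced from total RNA of Jurkat and 6T-CEM, established human lines of T-cell acute lymphoblastic leukaemia. Cells carried sh-NC, a control short hairpin RNA, or sh-SH2D1A, a hairpin directed against SH2D1A, whose product is an adaptor protein of SLAM-family receptors in T cells. The 16 libraries form 8 groups of 2, namely both hairpins in Jurkat, collected on days 8 and 10, and both in 6T-CEM, collected on days 5 and 10. Where 4 values follow each other without a label, Jurkat comes before 6T-CEM and the earlier day before the later. The labels name 1 hairpin per arm, and give neither the event from which days are counted nor whether the 2 libraries of a group came from separate cultures, so every p-value below measures only the spread between these libraries.

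Alpha- and beta-tubulin need help to fold. Prefoldin hands the new chains to the ring-shaped chaperonin CCT, and the cofactors then take over, TBCB and TBCE for alpha-tubulin and TBCA and TBCD for beta-tubulin, until TBCC acts on the joint complex and releases the alpha-beta dimer that builds microtubules. Cells also adjust tubulin messenger RNA to the amount of free tubulin: TTC5 recognises the start of a tubulin chain as it leaves the ribosome, and SCAPER and the CNOT11 subunit of the deadenylase complex then act on the messenger. Microtubules are needed for the mitotic spindle and for the polarity of T cells.

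The start of the coding sequence is shown because it encodes the few residues that TTC5 reads, which ties the tubulin genes to one control system and sets them apart from TBCA. Each line gives the first 30 coding bases of the spliced transcript in GENCODE 29 (GRCh38), 5′ to 3′, with the first 4 codons (12 bases) in capitals.
TUBA1A: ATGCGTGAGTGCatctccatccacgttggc
TUBA1B: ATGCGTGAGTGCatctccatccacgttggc
TUBB: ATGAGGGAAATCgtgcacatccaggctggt
TUBB4B: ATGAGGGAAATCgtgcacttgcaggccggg
TUBB3: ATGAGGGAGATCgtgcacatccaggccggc
TBCA: ATGGCCGATCCTcgcgtgagacagatcaag
Start codons lie at chr12:49188417-49188419 (TUBA1A, minus strand), chr12:49131298-49131300 (TUBA1B, minus strand), chr6:30720507-30720509 (TUBB, plus strand), chr9:137241361-137241363 (TUBB4B, plus strand), chr16:89923402-89923404 (TUBB3, plus strand) and chr5:77776255-77776257 (TBCA, minus strand). TUBA1A and TUBA1B are identical over the 30 bases. TUBB and TUBB4B share their first 4 codons and differ further on. Each of the 3 tubulin starts was found in 3 of 19483 protein-coding genes (0.0154%), all with tubulin symbols, and the start of TBCA in TBCA alone (0.00513%). TUBB3, the class III beta-tubulin best known from neurons, is shown because its values return below. A shared start is a description of the sequence and says nothing of whether autoregulation was active in these cells.

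SH2D1A was lower in every sh-SH2D1A library than in every sh-NC library of the same line and day. Its level in CPM (counts scaled to the size of the library, with TMM factors) was 163 and 175 with sh-NC against 53.9 and 49.4 with sh-SH2D1A in Jurkat on day 8, and 176 and 204 against 60.1 and 65.4 on day 10. In 6T-CEM it was 189 and 201 against 55.5 and 62.7 on day 5, and 156 and 154 against 80.8 and 74.5 on day 10. The level with sh-SH2D1A was therefore 30.4, 33.1, 30.5 and 50.1% of the control, in that order. The smaller fall in 6T-CEM on day 10 differed from that on day 5 (0.72 ± 0.13 (SE) on the log2 scale, edgeR adjusted p = 0.0181), though not without the second sh-NC library of day 5 (adjusted p = 0.0582), either sh-NC library of day 10 (0.0934 and 0.0865) or the first sh-SH2D1A library of day 10 (0.0899).

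Total counts were 27217899 to 33788024 per library. The T-cell markers summed to between 1359 and 3319 CPM with sh-NC and between 1323 and 2978 CPM with sh-SH2D1A, and 9 of the 10 were at 1 CPM or more in every library. In Jurkat on day 8, 8 of the 10 fell (7.13% of all genes fell), in Jurkat on day 10, 4 (2.52%), and in 6T-CEM on day 10, 5 fell (7.42%) and 2 rose (6.61% of all genes rose). In 6T-CEM on day 5 edgeR called 0 (2.11% of all genes called), with 5 at an unadjusted p under 0.05 (16.9% of all genes). DESeq2 called 3 there, without a share of all genes to set beside it. The part of these T-cell transcripts in the values below was not tested. Summed markers of other cell types reached at most 77.3 CPM for B cells (6 genes), 3.21 CPM for myeloid cells (7 genes), 5.73 CPM for epithelial or packaging cells (5 genes) and 4.21 CPM for erythroid cells (5 genes), and no single marker was at 0 in all libraries. The share of mitochondrial reads was highest in the sh-SH2D1A libraries of 6T-CEM on day 5, at 7.98 and 9.19%, against 7.44 and 7.63% in their controls.

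TBCA binds beta-tubulin after it leaves the chaperonin. The gene lies on the minus strand at chr5:77691166-77868780 (GRCh38). On day 8 in Jurkat it was at 107 and 114 CPM with sh-NC and at 30.1 and 29.5 CPM with sh-SH2D1A. In Jurkat on day 10 the values were 102 and 88.6 CPM against 36.4 and 31.2 CPM. The sh-SH2D1A libraries of both days lay close together, well below all 4 control libraries.

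In 6T-CEM on day 5 TBCA was at 41.7 and 41.1 CPM with sh-NC and at 12.8 and 17.2 CPM with sh-SH2D1A. On day 10 the values were 69.1 and 72.4 CPM against 22.6 and 25.5 CPM. The arms did not overlap in any line and day, but the controls of 6T-CEM on day 5 were near the highest sh-SH2D1A libraries of Jurkat. The log2 change was -1.90 ± 0.06 (SE, n = 2 against 2) in Jurkat on day 8, -1.49 ± 0.11 on day 10, -1.46 ± 0.19 in 6T-CEM on day 5 and -1.55 ± 0.07 on day 10, which leaves 26.8, 35.6, 36.4 and 34.1% of the control level. Ordered from the most negative log2 change among genes with a symbol and a mean of at least 10 CPM, TBCA stood at place 3 of 10169, 5 of 10149, 14 of 9966 and 9 of 10177. In bulk RNA, fewer cells carrying the transcript and less transcript per cell cannot be told apart.

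**Figure D1:**
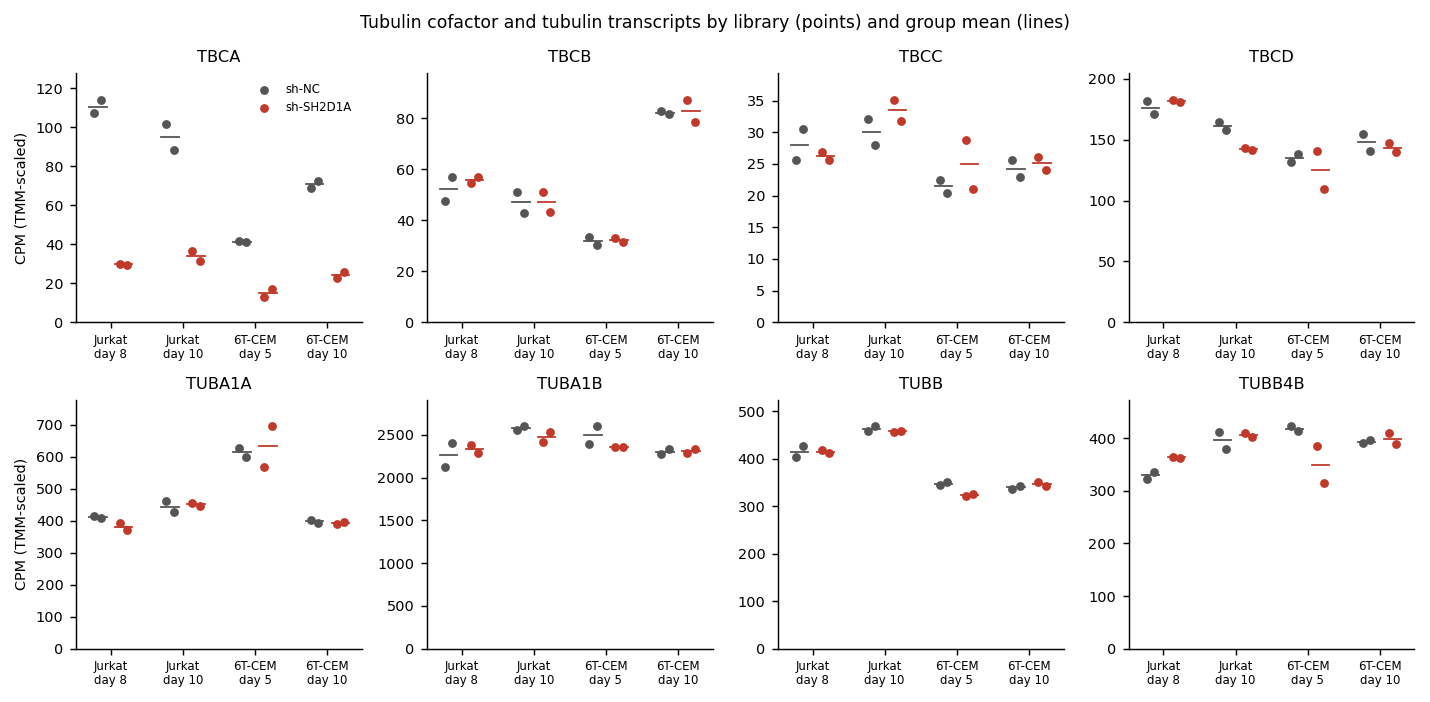
Level of TBCA, TBCB, TBCC, TBCD, TUBA1A, TUBA1B, TUBB and TUBB4B in CPM (y axis, from 0) for each line and day (x axis); points are libraries, lines are group means, grey is sh-NC and red is sh-SH2D1A. For TBCA the red points lie between 12.8 and 36.4 CPM and below the grey points of the same line and day, while for the other 7 genes no change passed the test.

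None of the other 7 genes changed by the test in any of the 4 comparisons. The 28 tests gave 0 calls with edgeR (lowest adjusted p 0.115), 3 values with an unadjusted p under 0.05, and 0 calls with the DESeq2 Wald test. An unadjusted p under 0.05 with edgeR was found for 28.4, 18.3, 16.9 and 28.2% of all genes. Among all genes tested, 12.4% were called in Jurkat on day 8, 3.78% in Jurkat on day 10, 2.11% in 6T-CEM on day 5 and 14.0% in 6T-CEM on day 10. The 95% intervals of the 28 changes all lay between -0.53 and 0.68 on the log2 scale, or between 69.4 and 160% of the control level. The intervals were narrowest in 6T-CEM on day 10, from -0.16 to 0.27, and widest in 6T-CEM on day 5.

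The beta-tubulin genes are the clients of TBCA. TUBB, a beta-tubulin of dividing cells, was at 404 and 426 CPM with sh-NC against 418 and 412 CPM with sh-SH2D1A in Jurkat on day 8, and at 458 and 469 against 456 and 459 CPM on day 10. In 6T-CEM it was at 345 and 350 against 322 and 325 CPM on day 5, and at 336 and 343 against 351 and 342 CPM on day 10. The arms overlapped except in 6T-CEM on day 5, where the sh-SH2D1A libraries were lower, and the log2 change there was -0.09 ± 0.11 (SE, edgeR adjusted p = 0.709).

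TUBB4B, another widely expressed beta-tubulin, was at 323 and 337 CPM with sh-NC against 364 and 363 CPM with sh-SH2D1A in Jurkat on day 8. On day 10 in Jurkat it was at 412 and 380 against 410 and 402 CPM. On day 10 in 6T-CEM it was at 391 and 397 against 410 and 389 CPM. Only the first of these pairs of arms did not overlap, with a log2 change of 0.13 ± 0.05 (SE, edgeR adjusted p = 0.115), and leaving out the second sh-NC library of Jurkat on day 8 gave 0.16 with an adjusted p of 0.0429.

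In 6T-CEM on day 5 TUBB4B was at 423 and 414 CPM with sh-NC against 385 and 316 CPM with sh-SH2D1A. Both sh-SH2D1A libraries were below the controls, and they were farther from each other than the controls were. The log2 change was -0.25 ± 0.12 (SE, edgeR adjusted p = 0.357). With the spread of all 16 libraries it was -0.26 and passed (adjusted p = 0.042), and without the first sh-SH2D1A library it was -0.40 (adjusted p = 0.00432), so this value rests on the second library, which had the highest mitochondrial share. The part of that share in the result was not tested.

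The alpha-tubulin genes did not pass either. TUBA1A was at 415 and 408 CPM with sh-NC against 391.6 and 370.0 CPM with sh-SH2D1A in Jurkat on day 8, at 461 and 427 against 455 and 448 CPM in Jurkat on day 10, at 629 and 601 against 569 and 696 CPM in 6T-CEM on day 5, and at 402 and 394 against 390 and 396 CPM in 6T-CEM on day 10. It was lower without overlap only in Jurkat on day 8, with a log2 change of -0.12 ± 0.05 (SE, edgeR adjusted p = 0.173). TUBA1B, the most abundant tubulin transcript here, ranged from 2120 to 2601 CPM in the sh-NC libraries and from 2287 to 2537 CPM in the sh-SH2D1A libraries, and its 4 changes lay between -0.07 and 0.04. Its arms did not overlap in Jurkat on day 10, with 2553 and 2599 against 2418 and 2537 CPM, or in 6T-CEM on day 5, with 2395 and 2601 against 2359 and 2362 CPM (adjusted p = 0.732 and 0.768). TUBA1A overlaps TUBA1C on the opposite strand, and TUBA1B overlaps the antisense gene AC011603.2, which held up to 14675 counts in a library. The strand setting of the counts is not given in the sources used here, so reads of such pairs, and those of TBCB with POLR2I and of TBCD with B3GNTL1, cannot be told apart.

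TBCD works on beta-tubulin beside TBCA, at the step where the dimer is assembled. It was at 182 and 171 CPM with sh-NC against 183 and 181 CPM with sh-SH2D1A in Jurkat on day 8, and at 165 and 158 against 143 and 142 CPM on day 10. In 6T-CEM it was at 131 and 139 against 141 and 109 CPM on day 5, and at 155 and 141 against 147 and 140 CPM on day 10. The arms were apart only in Jurkat on day 10, where TBCD was lower by -0.18 ± 0.08 (SE, log2 scale, edgeR adjusted p = 0.248).

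TBCB, the cofactor that receives alpha-tubulin, had changes of 0.09, 0.01, 0.03 and 0.02 (log2, in that order of lines and days), and its arms overlapped in all 4. TBCC, which triggers release of the dimer, had changes of -0.10, 0.16, 0.23 and 0.05, also with overlap in all 4. The widest interval of the 28 was that of TBCC in 6T-CEM on day 5, from -0.22 to 0.68, with 22.5 and 20.4 CPM in the controls and 28.8 and 21.1 CPM with sh-SH2D1A. Counts were lowest for this gene, between 552 and 1081 per library.

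Both libraries of an arm lay above both of the other for 2 of the 7 genes in Jurkat on day 8 (57.5% of all genes tested), for 2 in Jurkat on day 10 (48.7%), for 3 in 6T-CEM on day 5 (48.6%) and for 0 in 6T-CEM on day 10 (56.8%). Separation of the arms was thus no more common among these 7 than among all genes. Their median absolute log2 change was 0.09, 0.04, 0.09 and 0.02, beside 0.20, 0.18, 0.26 and 0.18 over all genes tested. All genes tested include those near the minimum count of 10, while these 7 had at least 552 counts in each library. The medians are thus not matched for level and do not show that these genes were steadier than others.

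**Figure D2:**
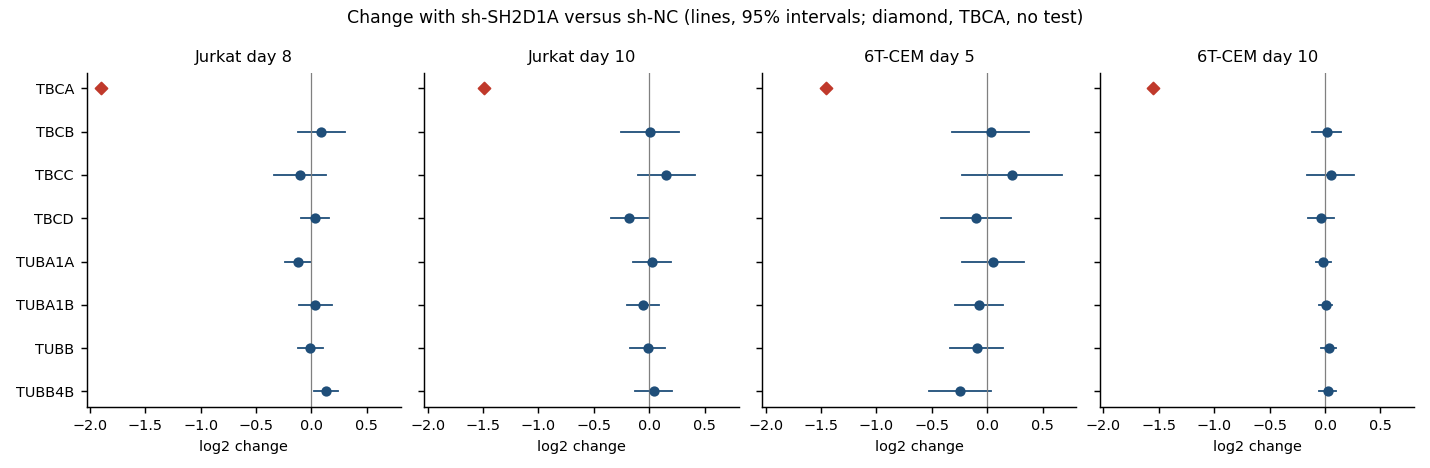
Log2 change with sh-SH2D1A against sh-NC (x axis) for the 8 genes (y axis) in each line and day; points are edgeR estimates, lines are 95% intervals, and the red diamond is TBCA, shown without an interval because it was chosen by these values. The diamonds lie between -1.90 and -1.46, and all lines of the other 7 genes lie between -0.53 and 0.68.

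Averaged over the 4 comparisons in a fit of all 16 libraries, the change of TBCA was -1.60 ± 0.06 (SE, log2 scale). The other 7 averages lay between -0.07 ± 0.05 for TBCD and 0.08 ± 0.07 for TBCC. With edgeR 0 of 7 were called and 0 had an unadjusted p under 0.05, and DESeq2 called 0. Among all genes edgeR called 23.0%, and 34.3% had an unadjusted p under 0.05. Without the first sh-SH2D1A library of 6T-CEM on day 5, TBCD passed with -0.12 (adjusted p = 0.0131).

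The knockdown changes of the 7 genes were also compared between lines and between days. Among all genes, 14.0, 6.66 and 13.1% had an unadjusted p under 0.05 with edgeR in the contrasts below, in their order. For Jurkat minus 6T-CEM edgeR called 0 of 7 (1.90% of all genes called), with 1 at an unadjusted p under 0.05, TUBB4B, whose change was 0.21 ± 0.08 higher in Jurkat (adjusted p = 0.234, 95% interval 0.04 to 0.37). For Jurkat day 10 minus day 8 it called 0 of 7 (0.00454% of all genes), with 0 at an unadjusted p under 0.05. For 6T-CEM day 10 minus day 5 it called 0 of 7 (0.681%), with 1 at an unadjusted p under 0.05, again TUBB4B (0.28 ± 0.11, adjusted p = 0.294). DESeq2 called 0 in each, and without the first sh-SH2D1A library of 6T-CEM on day 5 TUBB4B passed in the line difference (0.28, adjusted p = 0.012) and in the 6T-CEM day difference (0.43, adjusted p = 0.00778). The change of TBCA itself differed by -0.18 between lines, by 0.40 between the Jurkat days and by -0.08 between the 6T-CEM days, with standard errors of 0.12, 0.17 and 0.17 and no test.

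Levels of different genes can be compared per length, as counts per kilobase of merged exons scaled to the same total in each library (TPM). Over the 8 sh-NC libraries the median was 2453 TPM for TUBA1B, 670.4 for TUBB4B, 461 for TUBA1A, 417 for TUBB, 96.0 for TBCA, 58.5 for TBCC, 55.2 for TBCB and 42.2 for TBCD. Tubulin transcripts were all above the cofactors, whose ranges overlapped each other: TBCA ran from 48.6 to 135 TPM, TBCC from 45.7 to 73.2 TPM, TBCB from 32.9 to 89.8 TPM and TBCD from 35.7 to 51.0 TPM. In the sh-SH2D1A libraries TBCA had a median of 33.4 TPM (15.5 to 44.3) and moved from place 5 to place 8 of the 8 genes. With the longest transcript as the length TBCA kept place 5 at 97.5 TPM in the sh-NC libraries, followed by TBCB at 93.3, TBCD at 61.0 and TBCC at 44.5 TPM, and TUBA1A (618.5 TPM) came before TUBB4B (539 TPM). The order among the other cofactors and between TUBA1A and TUBB4B therefore depends on the gene length used.

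**Figure D3:**
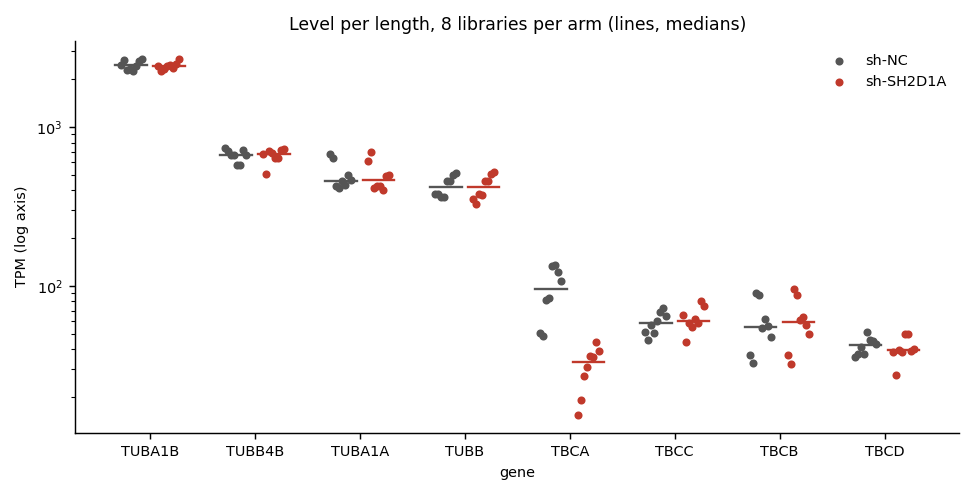
Level per length in TPM (log axis) of the 8 genes ordered by their median in the sh-NC libraries; points are the 8 libraries of each arm, lines are medians, grey is sh-NC and red is sh-SH2D1A. TBCA is the gene whose arms do not overlap, from 48.6 to 135 TPM in grey and from 15.5 to 44.3 TPM in red.

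Set against its client, TBCA had 3.87 to 11.6 TPM (median 7.70) for each 100 TPM of summed beta-tubulin in the sh-NC libraries and 1.297 to 3.24 TPM (median 2.68) in the sh-SH2D1A libraries. The beta-tubulin sum over 9 genes was at 1161 and 1165 TPM with sh-NC against 1240 and 1233 TPM with sh-SH2D1A in Jurkat on day 8, and at 1343 and 1301 against 1369 and 1383 TPM on day 10. In 6T-CEM it was at 1283 and 1256 against 1193 and 975 TPM on day 5, and at 1174 and 1185 against 1243 and 1215 TPM on day 10. The sum was thus higher with sh-SH2D1A without overlap in 3 of the 4 and lower without overlap in 6T-CEM on day 5. TPM carries no TMM factors, unlike the CPM above, and the scaling can turn a small difference. In Jurkat on day 10 the mean of TUBB was 463.2 CPM with sh-NC and 457.8 CPM with sh-SH2D1A, but 509.5 and 513.3 TPM. The part of the scaling in these sums was not tested. The alpha-tubulin sum over 10 genes had medians of 3216 and 3204 TPM. TUBA1B made up 71.9 to 80.0% of the alpha sum with sh-NC and 68.4 to 78.7% with sh-SH2D1A, and TUBB4B made up 49.5 to 57.6% and 51.6 to 56.9% of the beta sum. These ranges pool lines and days. Within a line and day the TUBA1B share lay apart in 3 of the 4, higher with sh-SH2D1A in Jurkat on day 8 and lower in Jurkat and 6T-CEM on day 10, and the TUBB4B share lay apart in Jurkat on day 8 alone, where it was higher. These sums and shares were not tested, and in CPM between 48.6 and 57.5% of all genes were apart in this way. The lower ratio of TBCA rests in part on the TBCA level that chose the gene.

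Between control libraries TBCA can be tested, since these contrasts did not choose it. With all libraries in the fit, edgeR called TBCA and TBCB in some of these contrasts and TBCC and TBCD in none. In 6T-CEM from day 5 to day 10, TBCB rose from 33.4 and 30.2 CPM to 82.7 and 81.7 CPM (log2 change 1.37 ± 0.11, SE, edgeR adjusted p = 8.08e-07). TBCA rose in the same contrast by 0.77 ± 0.12 (adjusted p = 0.000131), and TUBA1A fell by 0.63 on the log2 scale, from 629 and 601 CPM to 402 and 394 CPM (adjusted p = 2.43e-05). These were 3 of the 8 genes, with 39.9% of all genes called. Of the 8 genes tested on the list of folding cofactors, 3 rose and 3 fell. Besides TBCA and TBCB, the GTPase ARL2, a partner of TBCD, rose by 1.29 ± 0.17 (edgeR adjusted p = 3.97e-05). RP2 (-0.87, adjusted p = 9.22e-06), TBCCD1 (-0.39, adjusted p = 0.0191) and TBCEL (-0.34, adjusted p = 0.0157) fell. Of the 22 G2/M genes 15 fell and 2 rose, with a median of -0.51, where 20.6% of all genes fell and 19.3% rose. TBCA and TBCB were raised in the libraries in which G2/M transcripts were lower, and the part of that in the result was not tested.

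In Jurkat from day 8 to day 10, edgeR called 0 of the 8 genes (3.40% of all genes called). An unadjusted p under 0.05 was found for 3 (16.9% of all genes), TUBB4B (0.26), TUBB (0.16) and TUBA1B (0.19). The DESeq2 Wald test called these 3 (adjusted p 0.00961, 0.0133 and 0.0356). Without the first sh-SH2D1A library of 6T-CEM on day 5 edgeR called 2, and without the second 1. Of the 22 G2/M genes 12 rose and 0 fell, with a median of 0.35, where 1.83% of all genes rose and 1.57% fell. On day 10 Jurkat had less TBCB than 6T-CEM, with 50.9 and 43.0 against 82.7 and 81.7 CPM (-0.81 ± 0.11, adjusted p = 5.84e-05). TUBB was higher in Jurkat (0.45 ± 0.05, adjusted p = 1e-05) and so was TBCA (0.43 ± 0.12, adjusted p = 0.0101), which made 3 of 8 with 36.6% of all genes called. The TBCA difference did not pass without the first control library of Jurkat (0.31, adjusted p = 0.122) or of 6T-CEM (0.39, adjusted p = 0.0785), and without the first sh-SH2D1A library of 6T-CEM on day 5, which is part of the shared fit, 6 of 8 were called. Each line and day has a count table of its own, so line or day and table cannot be told apart.

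**Figure D4:**
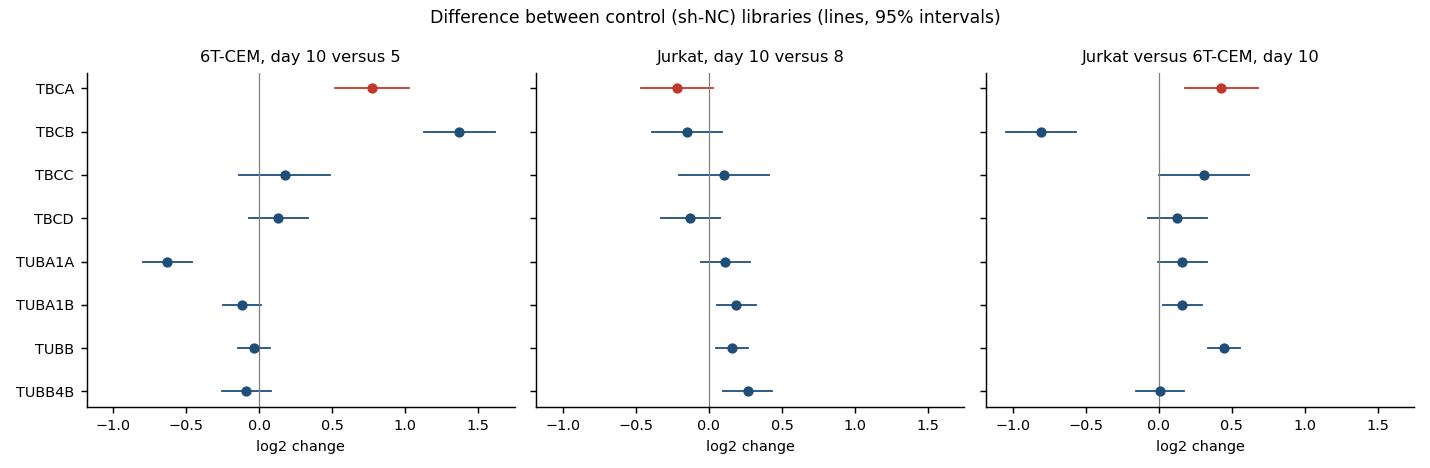
Log2 difference between sh-NC libraries (x axis) for the 8 genes (y axis) in 3 contrasts, with edgeR estimates as points and 95% intervals as lines; TBCA is red. In 6T-CEM the points of TBCB (1.37) and TBCA (0.77) lie to the right and that of TUBA1A (-0.63) to the left, while in Jurkat all points lie between -0.22 and 0.26.

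Beyond the members, 9 lists of the pathway were followed, with 105 genes, of which 104 had a row and 98 were tested besides TBCA. In Jurkat on day 8, 13 of the 98 were called (5 higher and 8 lower, with 5.23% of all genes higher and 7.13% lower; 13.3% in all beside 12.4%). In Jurkat on day 10 there were 2 (both higher, with 1.26% of all genes higher and 2.52% lower; 2.04% in all beside 3.78%), and in 6T-CEM on day 10 there were 15 (9 higher and 6 lower, with 6.61% of all genes higher and 7.42% lower; 15.3% in all beside 14.0%). On day 5 in 6T-CEM edgeR called 0 (0.606% of all genes were higher and 1.51% lower). There 16 had an unadjusted p under 0.05 (16.9% of all genes), and DESeq2 called 4. These shares, from the fits of each table on its own, are near those of all genes. The counts depend on the spread assumed. With all 16 libraries in the fit they were 7, 6, 20 and 0. None of the calls in 6T-CEM on day 10 passed there (edgeR adjusted p 0.0556 to 0.619). Shares of all genes are not given for that fit or the settings that follow, so these counts have no background. They do not tell a change of the pathway from the rate of the fit. With no filter on low counts they were 3, 0, 0 and 6, namely MZT2A, CCT3 and TTLL12 in Jurkat on day 8 and TUBA1C, TUBGCP6, CCT3, CCT7, STMN3 and PAFAH1B1 in 6T-CEM on day 10. Leaving out a library gave 1 to 18, 2 to 5, 0 to 21 and 8 to 13. The low value of 1 in Jurkat on day 8 came without its first sh-SH2D1A library (4 without the second), the 5 in Jurkat on day 10 without its second sh-NC library, the 21 in 6T-CEM on day 5 without its first sh-SH2D1A library (12 without the second), and the 8 in 6T-CEM on day 10 without its second sh-NC library.

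TUBB3 and CCT3 were the 2 pathway genes called the same way in 3 of the 4 comparisons. TUBB3 was at 12.8 and 15.98 CPM with sh-NC against 21.3 and 22.1 CPM with sh-SH2D1A in Jurkat on day 8, and at 13.3 and 11.6 against 23.0 and 21.1 CPM on day 10. In 6T-CEM it was at 19.0 and 21.8 against 29.9 and 25.8 CPM on day 5, and at 25.1 and 27.8 against 31.8 and 32.9 CPM on day 10. The sh-SH2D1A libraries were above the controls in all 4.

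TUBB3 rose in Jurkat on day 8 (0.58 ± 0.13, edgeR adjusted p = 0.0266), in Jurkat on day 10 (0.83 ± 0.14, adjusted p = 0.0112) and in 6T-CEM on day 10 (0.29 ± 0.08, adjusted p = 0.0487). In 6T-CEM on day 5 its change was 0.46 ± 0.18 (adjusted p = 0.228). TUBB3 did not pass in Jurkat on day 8 without either sh-SH2D1A library (adjusted p = 0.0808 without the first, 0.138 without the second), nor in 6T-CEM on day 10 without the first sh-NC library (0.204) or either sh-SH2D1A library (0.0988 and 0.171). With no filter on low counts none of the 3 calls of TUBB3 passed (0.0985, 0.223 and 0.152), and with all 16 libraries in the fit that of 6T-CEM on day 10 did not (0.306). Its share of the beta-tubulin sum was 0.745 to 1.90% (median 1.18%) with sh-NC and 1.31 to 2.27% (median 1.77%) with sh-SH2D1A, and was higher with sh-SH2D1A without overlap in each line and day. TUBB3 begins with ATGAGGGAGATC, and TUBB and TUBB4B begin with ATGAGGGAAATC. The codons GAG and GAA both encode glutamate, so the residues encoded by these starts are the same in the 3 genes.

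CCT3 encodes the gamma subunit of the chaperonin that folds tubulin and actin. It was at 338 and 347 CPM with sh-NC against 460 and 435 CPM with sh-SH2D1A in Jurkat on day 8, and at 283 and 280 against 403 and 378 CPM on day 10. In 6T-CEM it was at 263 and 261 against 326 and 324 CPM on day 5, and at 484 and 492 against 558 and 553 CPM on day 10. Here too the arms were apart in all 4. CCT3 rose by 0.38 ± 0.05 in Jurkat on day 8 (edgeR adjusted p = 0.00434), by 0.48 ± 0.08 in Jurkat on day 10 (adjusted p = 0.00769) and by 0.19 ± 0.03 in 6T-CEM on day 10 (adjusted p = 0.00306), and in 6T-CEM on day 5 its change was 0.32 ± 0.11 (adjusted p = 0.175). Without the first sh-SH2D1A library of Jurkat on day 8 the adjusted p there was 0.0539. CCT3 also did not pass in Jurkat on day 10 with no filter (0.185) or in 6T-CEM on day 10 with all 16 libraries in the fit (0.0761).

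**Figure D5:**
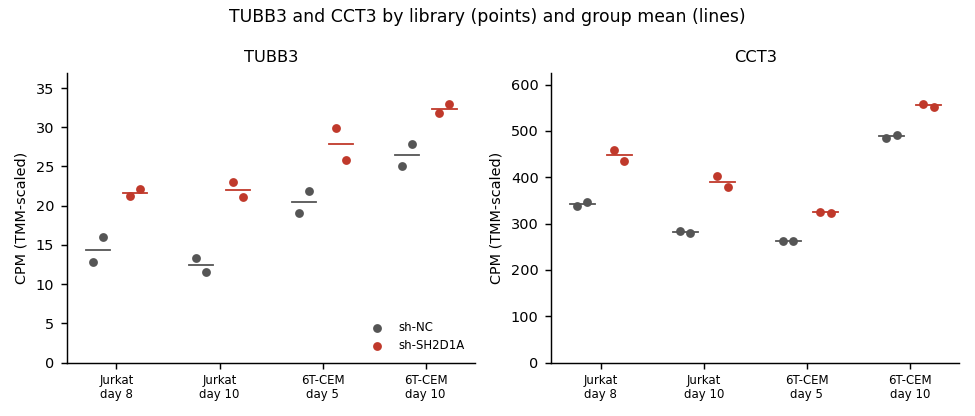
Level of TUBB3 and CCT3 in CPM (y axes, from 0) for each line and day (x axis); points are libraries, lines are group means, grey is sh-NC and red is sh-SH2D1A. The red points lie above the grey points of the same line and day in all 4, by up to 0.83 on the log2 scale for TUBB3 in Jurkat on day 10.

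The chaperonin list holds 9 genes. Besides CCT3, edgeR called CCT6A higher in Jurkat on day 8 (0.24) and CCT7 lower in 6T-CEM on day 10 (-0.24). Among all genes 12.4 and 14.0% were called there. Over the 4 comparisons, the DESeq2 Wald test called 6, 4, 1 and 3 of the 9. The share of all genes called by this test is not given, so the edgeR shares are no background for these counts. With edgeR, 6, 5, 4 and 3 had an unadjusted p under 0.05, beside 28.4, 18.3, 16.9 and 28.2% of all genes. The list medians were 0.17, 0.19, 0.18 and -0.03 on the log2 scale, beside -0.003, 0.004, -0.0008 and 0.002 over all genes. In the average of the 4 changes 5 of the 9 rose (CCT3 0.34, TCP1 0.19, CCT2 0.16, CCT6A 0.14, CCT8 0.12) and CCT7 fell (-0.21), with a median of 0.14 beside 0.01 over all genes. Subunits of 1 complex thus had changes of both signs. Over all 9 lists, 29 of the 98 averages were called (17 higher and 12 lower, with 10.7% of all genes higher and 12.3% lower; 29.6% in all beside 23.0%). Prefoldin and its partners, which deliver tubulin to the chaperonin, had 9 tested genes. PFDN5, a prefoldin subunit, fell in Jurkat on day 8 (-0.20) and in 6T-CEM on day 10 (-0.17), where 7.13 and 7.42% of all genes fell. EdgeR called no other gene of that list in the 4 comparisons, while the DESeq2 Wald test called 2 of the list in 6T-CEM on day 10. On day 8 in Jurkat CCT6A did not pass without either sh-SH2D1A library (adjusted p = 0.21 and 0.132), nor PFDN5 without the second sh-NC library (0.0903) or either sh-SH2D1A library (0.184 and 0.272). On day 10 in 6T-CEM PFDN5 did not pass without either sh-NC library (0.115 and 0.0921).

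Among the further folding genes, TBCCD1, a relative of TBCC linked to centrosome position, rose in 6T-CEM on day 10 (0.40 ± 0.08, edgeR adjusted p = 0.0162). Without the second sh-NC or the second sh-SH2D1A library its adjusted p was 0.0581 or 0.0816. In the other comparisons TBCCD1 was at 0.26, 0.38 and 0.62 without passing, and its average change was 0.41 ± 0.06 (adjusted p = 0.000197). It was the only gene of the 7 tested on that list to pass with edgeR in any of the 4 comparisons. In 6T-CEM on day 10, 6.61% of all genes rose. Of the alpha-tubulins, 7 tested, only TUBA1C was called there, and it rose (0.18 ± 0.03, edgeR adjusted p = 0.00508). The opposite-strand neighbour TUBA1A was at -0.01 there.

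The autoregulation genes TTC5, SCAPER and CNOT11 gave 0 calls of 3 in each of the 4 comparisons with edgeR and with DESeq2. None had an unadjusted p under 0.05 with edgeR, beside 28.4, 18.3, 16.9 and 28.2% of all genes. EdgeR called 12.4, 3.78, 2.11 and 14.0% of all genes there, so 0 of 3 does not set these genes apart. TTC5 had changes of 0.14, 0.21, 0.10 and 0.01. SCAPER had -0.03, -0.13, -0.04 and -0.12, and CNOT11 -0.02, 0.07, 0.22 and 0.04. All of these 95% intervals include 0. In the average of the 4 changes edgeR and DESeq2 each called 0 of the 3, where edgeR called 23.0% of all genes. There 1 of the 3 had an unadjusted p under 0.05 with edgeR (34.3% of all genes).

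The gamma-tubulin ring, from which microtubules grow, had 13 tested genes. In Jurkat on day 8, 3 of the 13 fell (7.13% of all genes fell), MZT2A (-0.48), MZT2B (-0.34) and TUBG2 (-0.35). In 6T-CEM on day 10, MZT2A (-0.27) and TUBGCP4 (-0.31) fell and TUBGCP6 rose (0.24), where 7.42% of all genes fell and 6.61% rose. MZT2A encodes a small subunit of the ring and MZT2B is its near-identical copy, so their reads may be split between them. MZT2B and TUBG2 did not pass in Jurkat on day 8 without either sh-SH2D1A library (adjusted p 0.109 to 0.223), nor TUBG2 without the second sh-NC library (0.129). MZT2A did not pass in 6T-CEM on day 10 without the second sh-NC library (0.139) or the first sh-SH2D1A library (0.0743). In the average of the 4 changes 5 of the 13 fell (12.3% of all genes) and 1 rose (10.7%), TUBD1 (0.36).

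The genes that modify tubulin gave 6 calls of 18 in Jurkat on day 8, where 12.4% of all genes were called. TTLL12 (0.29) and TTLL4, a glutamylase (0.26), rose, and 4 fell, TTLL3, a glycylase (-0.41), AGTPBP1, which removes glutamates (-0.41), HDAC6, which deacetylates tubulin (-0.25), and AGBL5 (-0.24). On day 10 in 6T-CEM only VASH2, which removes the terminal tyrosine, rose (0.17). On day 8 in Jurkat none of these 6 passed without the first sh-SH2D1A library (adjusted p 0.0535 to 0.137), and without the second only TTLL3 did. TTLL4 also did not pass without the second sh-NC library (0.0677), and VASH2 did not without either sh-NC library (0.176 and 0.131) or the second sh-SH2D1A library (0.101). Of the 24 genes of microtubule dynamics 5 passed in 6T-CEM on day 10, where 14.0% of all genes were called. STMN3, of the tubulin-binding stathmins (0.36), MAP1S (0.22) and the depolymerising kinesin KIF2C (0.15) rose, and PAFAH1B1, a dynein regulator (-0.29), and CAMSAP1, a minus-end binder (-0.17), fell. STMN3 and PAFAH1B1 passed whichever library was left out, but not in the fit of all 16 libraries (adjusted p = 0.0556 and 0.0767). MAP1S did not pass without either sh-NC library (0.116 and 0.0813) or the second sh-SH2D1A library (0.09), KIF2C without either sh-NC library (0.0911 and 0.107) or the first sh-SH2D1A library (0.0753), and CAMSAP1 without the second sh-NC library (0.28) or either sh-SH2D1A library (0.119 and 0.0607).

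G2/M transcripts, measured because tubulin and chaperonin genes vary with the cell cycle, gave 3 higher of 22 in Jurkat on day 8 (5.23% of all genes higher), 1 higher in Jurkat on day 10 (1.26%), and 2 higher and 2 lower in 6T-CEM on day 10 (6.61% and 7.42%). In 6T-CEM on day 5 edgeR called 0 (2.11% of all genes called), at a median of -0.14. There 4 had an unadjusted p under 0.05 (16.9% of all genes), and DESeq2 called 2. Summed, the 22 G2/M transcripts were at 6820 and 7242 CPM in the day 5 controls of 6T-CEM and at 5634 and 6542 CPM with sh-SH2D1A. The part of the cell cycle in the pathway values was not tested.

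TBCA was also set beside its neighbours. Of 14 protein-coding genes within 1 Mb, 12 had a row and 11 were tested in all 4 comparisons. The nearest, OTP, 51478 bases away, was too low to be tested. Next came WDR41, 70555 bases away, with changes of -0.12, -0.09, -0.03 and -0.09, and AP3B1, 131745 bases away, with 0.07, -0.01, 0.24 and 0.04. Neither was called. Of the neighbours, 2 were called in Jurkat on day 8 (12.4% of all genes called) and 3 in 6T-CEM on day 10 (14.0%). SCAMP1, a carrier membrane protein gene, fell in both (-0.49 ± 0.07, edgeR adjusted p = 0.00483, and -0.43 ± 0.06, adjusted p = 0.00208). ZBED3 rose in both (0.27 and 0.24, adjusted p = 0.0259 and 0.00725), though not in Jurkat on day 8 without either sh-SH2D1A library (0.066 and 0.212) or in 6T-CEM on day 10 without the first sh-NC library (0.0501). In the fit of all 16 libraries SCAMP1 (0.0936) and ZBED3 (0.119) did not pass in 6T-CEM on day 10, and with no filter on low counts ZBED3 passed in neither (0.0897 and 0.0523). LHFPL2 rose in 6T-CEM on day 10 (0.40, adjusted p = 0.0432), but did not pass without any 1 of the 4 libraries (0.0508 to 0.231), with all 16 in the fit (0.39) or with no filter (0.14).

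Of the TBCA pseudogenes, TBCAP1 had 11 to 50 counts in the sh-NC libraries and 2 to 16 in the sh-SH2D1A libraries, which is 1.2 and 1.25% of the TBCA counts summed over each arm. In the sh-SH2D1A group of 6T-CEM on day 5 it had 8 counts beside 380 of TBCA and 2 beside 455, which is too few to compare ratios. Reads of TBCA that were placed on this copy cannot be told apart from its own. TBCAP2 had no count in any library, and TBCAP3 had 1 to 4.

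The genes most like TBCA were sought among 11322 genes by the Pearson correlation of log2 CPM (plus 0.5) after subtraction of the mean of each line and day, over the 16 libraries. This is a description, since all libraries share the arms that chose TBCA. The 5 most alike were ZFAS1 (r = 0.986), a non-coding RNA host gene, ATG16L2 (0.983), a relative of an autophagy gene, CHI3L2 (0.982), a chitinase-like gene, FNBP1 (0.981) and CELF2 (0.978), an RNA-binding protein gene. SH2D1A was at 0.969, at place 20. The other 7 members were between -0.29 (TBCC) and 0.31 (TUBB). Among the members, TUBA1B and TUBB varied most alike (r = 0.72), and TBCD and TUBA1A most oppositely (r = -0.63). Both TBCD (141 and 109 CPM) and TUBA1A (569 and 696 CPM) varied most within the sh-SH2D1A group of 6T-CEM on day 5. The part of these libraries in the correlation was not tested.

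CHI3L2 was at -1.64, -1.35, -1.47 and -0.93 on the log2 scale, where TBCA was at -1.90, -1.49, -1.46 and -1.55. ZFAS1 was at -0.72, -0.69, -0.81 and -0.70. These comparisons use the same control libraries for each gene, and nothing follows from the likeness about shared control.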

How the data were processed

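Per the labels' protocols, total RNA was taken with TRIzol and made into TruSeq libraries. The authors deposited counts per Ensembl gene as whole numbers, not normalised, in 4 tables that each hold 1 line at 1 day. Per the submitters' processing notes, HISAT2 2.2.0, StringTie and hg38 were used, and no source used here gives the counting step, strand setting or annotation release. Of 64252 identifiers 40995 have a symbol, and those without hold 2.56 to 3.25% of a library's counts. GENCODE 29 gave positions, lengths and sequences.

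The members, gene lists and tests were chosen with earlier results of these data known. Each table was fitted on its own with edgeR 4.0.16 in R 4.3.3 (filterByExpr with a minimum count of 10, TMM, two-sided quasi-likelihood F-test, Benjamini-Hochberg adjustment over all tested genes, calls under 0.05). Averages, differences and control contrasts came from 1 fit of all 16 libraries with 8 group means. The scripts were tested on simulated counts. The median change of all genes was at most 0.02 (log2) in each contrast. Replicate numbers did not pair libraries: deviations of equal numbers correlated across genes at 0.044, 0.0264, 0.0235 and 0.0207, and genes are not independent replicates.

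Named were the members, SH2D1A, pathway genes called alike in 3 comparisons or with the lowest adjusted p of a list (up to 4), neighbours within 1 Mb, pseudogenes, and the 5 genes most like TBCA among those with a mean of at least 5 CPM. TTLL7, ARL2, RP2, TBCEL, TTC5, SCAPER, CNOT11, AGBL5, TTLL4, CAMSAP1 and genes named only in averages were named after their values were seen. Alternatives were DESeq2 1.42.0 size factors and Wald test, 1 fit of all 16 libraries, no filter, a minimum of 10 counts throughout 1 group, a block for the replicate number, another gene length, and each library left out. Where this left 1 library in a group, its spread was taken from the other groups. Shares of all genes are those of the main edgeR fits, and none is given for these alternatives.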

Additional observations from a re-analysis of the deposited data

Results flagged for a closer look

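Among the 98 pathway genes tested besides TBCA, 2 had knockdown changes that differed between the lines by the test of the difference. CCT7, the eta subunit of the chaperonin, had a change that was higher in Jurkat than in 6T-CEM by 0.35 ± 0.07 (SE, log2 scale, edgeR adjusted p = 0.0189), with changes of -0.04 and -0.04 in Jurkat at days 8 and 10 and of -0.52 and -0.24 in 6T-CEM at days 5 and 10. This difference did not pass without any 1 of 8 libraries (adjusted p 0.0506 to 0.0919), namely the 4 of 6T-CEM at day 10, the first sh-NC and both sh-SH2D1A libraries of Jurkat at day 8, and the second sh-NC library of Jurkat at day 10. TTLL7, which adds glutamates to beta-tubulin, differed by 1.31 ± 0.23 (edgeR adjusted p = 0.00919). Its changes were 1.18 and 1.11 in Jurkat and -0.21 and -0.10 in 6T-CEM, none of which passed within its own table. The Jurkat changes of TTLL7 start from a much lower level. In the day 10 controls it was at 6.32% of its level in 6T-CEM (log2 difference -3.98 ± 0.24, edgeR adjusted p = 1.56e-08). None of the 7 members tested was among these genes, and with 2 libraries a group no search for outlying libraries was made.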

How the results depend on the processing

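Every change of TBCA with sh-SH2D1A kept its direction in all settings run, and DESeq2 size factors and the stricter filter moved none of the main counts by over 1.5 times. Counts of pathway genes were less stable, and the cause was not tested. No shares of all genes are given for these settings. With the DESeq2 Wald test they were 9 in place of 2 in Jurkat at day 10, 4 in place of 0 in 6T-CEM at day 5, 5 in place of 2 for the line difference, 2 in place of 0 for the 6T-CEM day difference and 19 in place of 10 between the Jurkat controls, where 3 members in place of 0 were called. With no filter they were 3 in place of 13 in Jurkat at day 8, 0 in place of 2 in Jurkat at day 10 and 6 in place of 15 in 6T-CEM at day 10. With all 16 libraries in the fit they were 7, 6, 20 and 0 in place of 13, 2, 0 and 15 (Jurkat days 8 and 10, 6T-CEM days 5 and 10), and 1 member in place of 0 was called in 6T-CEM at day 5. The main fits did not pair libraries by replicate number, and the labels do not say whether equal numbers belong together. With the replicate number as a block, the counts of pathway genes were 9 in Jurkat at day 10, 12 in 6T-CEM at day 5, 4 for the line difference, 1 for the 6T-CEM day difference and 16 between the Jurkat controls, where 1 member was called, and in the other comparisons the block moved no count by over 1.5 times. Leaving out each library in turn, TBCA ranged from -1.68 to -1.26 in 6T-CEM at day 5, from -0.33 to -0.13 between the Jurkat controls and from 0.31 to 0.52 between the lines' controls, where it passed in all but 2 settings (0.39 and 0.31). Members called ranged from 0 to 1 in Jurkat at day 8, in 6T-CEM at day 5, for the average, for the line difference and for the 6T-CEM day difference, from 0 to 2 between the Jurkat controls and from 2 to 6 between the lines' controls. Pathway genes ranged from 1 to 18 in Jurkat at day 8, 2 to 5 in Jurkat at day 10, 0 to 21 in 6T-CEM at day 5, 8 to 13 in 6T-CEM at day 10, 1 to 6 for the line difference, 0 to 13 for the 6T-CEM day difference and 3 to 19 between the Jurkat controls. Of the values for single genes, 54 lost and 6 gained their call under the other settings, 11 moved in size, and 643 did none of these. With a library left out, 63 moved in size. Size was compared only for values without a call or without a test in the main fit. SH2D1A in Jurkat at day 10 was -1.60 with an adjusted p of 0.139 without the filter. The precision that 2 libraries a group give differed between tables, with member intervals narrowest in 6T-CEM at day 10.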
